A study of Homo sapiens with 18 samples.

Results

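The genes described here are SRF and YAP1, which encode 2 regulators of transcription, and 8 genes known as their targets or partners: CCN1, CCN2, AMOTL2, VCL, ACTG1, MYL9, FHL2 and AJUBA. They were taken by symbol from a table of 23622 genes, in which each of the 10 symbols has 1 row, and all 10 were among the 15760 genes with enough counts to be tested. SRF is a DNA-binding factor that recognizes the CArG box and works with the MRTF coactivators, which respond to the state of the actin cytoskeleton, and with the ternary complex factors, which respond to MAP kinase signaling. YAP1 is a coactivator without a DNA-binding domain of its own. It is held in the cytoplasm by the kinases of the Hippo pathway and acts in the nucleus through the TEAD factors, which bind GGAATG. Both systems respond to cell shape and tension, and many genes, CCN1 and CCN2 among them, are targets of both.

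RNA was measured in A2780, a human ovarian cancer cell line that is sensitive to cisplatin, and in A2780cis, its resistant derivative, named Acis here. Each line was either left untreated or given 200 µM cisplatin for 3 h, and each of these 4 groups had 3 RNA-seq libraries. Acis was kept in culture with 1 µM cisplatin every 3 passages, so that history of drug exposure and the resistant state go together in every Acis sample, and Acis is a single derived line. ATAC-seq, which marks accessible DNA by the insertion of a transposase, gave 1 list of peaks for each of the same 4 conditions.

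The libraries held 4130644 to 5072216 counts. Values below are normalized counts, meaning counts scaled with TMM factors to the mean library size, and log2 fold changes, standard errors (SE) and adjusted p-values come from edgeR's quasi-likelihood test over all genes tested, with Benjamini-Hochberg adjustment and 0.05 as the threshold. The replicates were cultures of 1 line each, and some pairs of libraries differed by less than the counting noise, so p-values measure only the spread between these libraries. Of 8 markers of epithelial and ovarian carcinoma, 5 (KRT19, CDH1, PAX8, WT1 and MUC16) are not listed in the table, and the summed level of the others was 34.6 to 51.3 in A2780 control and 135 to 158 in Acis control libraries. The higher sum came from KRT18 (means of 25.5 and 143), while KRT8 (15.6 and 4.05) and EPCAM (3.55 and 0.734) had lower means in Acis control. The sum of 6 fibroblast markers was 3449 to 3624 in A2780 control, 2706 to 2959 in A2780 cisplatin, 3891 to 4022 in Acis control and 3386 to 3546 in Acis cisplatin libraries. Of these markers, COL3A1 was higher in Acis control (means of 1802 in A2780 control and 3944 in Acis control), and the other 5 had far lower means there, with COL1A1 at 844 and 16.4, PDGFRB at 72.6 and 3.21, DCN at 46.2 and 3.65, LUM at 11.9 and 1.85, and COL1A2 at 787 in A2780 control and at 0 counts in all 3 Acis controls. The sum of 4 leukocyte markers did not exceed 3.75. The part of these marker differences in the results below was not tested. In RNA from a whole culture, fewer cells that express a gene and less of its RNA in each cell cannot be told apart.

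The 250 bases before the annotated start of 4 of the genes are shown because they hold the motifs by which SRF and the TEAD factors are recognized. They are from RefSeq on GRCh38.p14, on the strand of the gene, and capitals mark each CArG box or each GGAATG or its complement CATTCC. They are chr6:131951373-131951622, minus strand, for CCN2, chr3:134374448-134374697, minus strand, for AMOTL2, chr6:43171019-43171268, plus strand, for SRF, and chr17:81512800-81513049, minus strand, for ACTG1.
CCN2: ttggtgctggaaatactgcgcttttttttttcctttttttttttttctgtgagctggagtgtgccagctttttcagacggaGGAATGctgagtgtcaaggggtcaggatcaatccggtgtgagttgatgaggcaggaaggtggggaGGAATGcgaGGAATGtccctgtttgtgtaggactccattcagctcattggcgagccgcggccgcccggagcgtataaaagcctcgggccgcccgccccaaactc
AMOTL2: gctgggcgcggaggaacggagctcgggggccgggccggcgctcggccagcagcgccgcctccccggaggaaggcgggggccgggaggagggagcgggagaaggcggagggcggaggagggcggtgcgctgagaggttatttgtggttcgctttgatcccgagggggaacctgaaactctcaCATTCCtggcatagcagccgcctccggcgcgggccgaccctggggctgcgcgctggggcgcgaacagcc
SRF: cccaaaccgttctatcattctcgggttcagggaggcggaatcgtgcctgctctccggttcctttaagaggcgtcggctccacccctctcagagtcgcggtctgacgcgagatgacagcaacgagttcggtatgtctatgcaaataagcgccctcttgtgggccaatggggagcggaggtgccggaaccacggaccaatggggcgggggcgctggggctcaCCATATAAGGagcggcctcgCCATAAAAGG
ACTG1: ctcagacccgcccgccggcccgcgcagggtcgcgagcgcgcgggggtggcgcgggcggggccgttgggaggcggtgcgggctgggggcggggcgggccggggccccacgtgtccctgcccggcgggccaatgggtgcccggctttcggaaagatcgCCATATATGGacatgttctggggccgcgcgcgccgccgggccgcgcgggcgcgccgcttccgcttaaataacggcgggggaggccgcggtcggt

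With positions counted from the start of the gene, CCN2 holds GGAATG 3 times in this window, from -169, -104 and -95, and AMOTL2 holds CATTCC once, from -69. YAP1 and VCL each hold GGAATG once, from -162 and -171. SRF itself holds 2 CArG boxes, CCATATAAGG from -30 and CCATAAAAGG from -10. ACTG1 holds CCATATATGG from -94 and FHL2 holds CCTTATATGG from -59. The window of AJUBA, chr14:22982552-22982801 on the minus strand, holds neither motif. The table of promoters held 8 of the 10 genes, without CCN1 and MYL9. With both strands searched and the 50 bases after the start included, 14.0% of 35116 promoters held GGAATG or CATTCC and 0.128% held it 3 or more times, while 1.29% held an exact CArG box and 0.0313% held at least 2. A match is a description of the letters and no evidence of binding.

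The clearest feature of the 10 genes was a near loss of CCN1 and CCN2 RNA in Acis. Without cisplatin, 6 of the 10 genes were lower in Acis than in A2780 (CCN1, CCN2, VCL, AMOTL2, MYL9 and YAP1) and 1 was higher (ACTG1). Of all 15760 genes, 30.6% were lower and 28.2% higher in this comparison. For the 10 genes, DESeq2 called 4 lower, without MYL9 and YAP1. The 2 genes that were lower by at least 2-fold were CCN1 and CCN2, against 12.2% of all genes. The median log2 difference of the 10 genes was -0.11, beside -0.01 over all genes tested. The 3 Acis libraries did not overlap the 3 A2780 libraries for 7 of the 10 genes, and for 64.2% of all genes.

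CCN1 encodes a secreted protein of the extracellular matrix that binds integrins and is induced by YAP and by SRF. It lies at chr1:85580761-85584589 on GRCh38 and has 5 exons. Its normalized counts were 510, 543 and 517 in A2780 control, 692, 710 and 714 in A2780 cisplatin, 7.43, 13.8 and 5.70 in Acis control and 9.60, 7.88 and 10.8 in Acis cisplatin libraries. Every A2780 library was thus far above every Acis library, and the A2780 cisplatin libraries were above all A2780 control libraries. Between the controls, 1596 counts in A2780 stood against 25 in Acis, which made the level 57.7-fold higher in A2780 (95% counting interval 39.0 to 89.5). With cisplatin the ratio was 74.7 (51.9 to 112), from 2198 and 29 counts. The log2 difference was -5.83 (SE 0.13, adjusted p = 2.16e-24) without and -6.21 (SE 0.11, adjusted p = 3.74e-26) with cisplatin. The counting intervals are wider than these SEs imply.

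CCN2, which encodes connective tissue growth factor, the paralog of CCN1 and a standard readout of YAP activity, showed the same order of lines. It lies at chr6:131948176-131951372 and also has 5 exons. Its normalized counts were 248, 272 and 253 in A2780 control, 235, 302 and 285 in A2780 cisplatin, 2.12, 2.13 and 3.42 in Acis control and 3.84, 2.95 and 1.96 in Acis cisplatin libraries. The lines did not overlap, while the cisplatin and control libraries of each line did. Between the controls, 786 counts stood against 7, a level 102-fold higher in A2780 with a 95% counting interval of 49.0 to 253, and with cisplatin 853 stood against 9, a ratio of 93.4 (49.0 to 205). The log2 differences were -6.60 (SE 0.22, adjusted p = 5.08e-20) and -6.49 (SE 0.20, adjusted p = 1.11e-20). Here too the counting intervals are wider than the SEs imply.

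**Figure D1:**
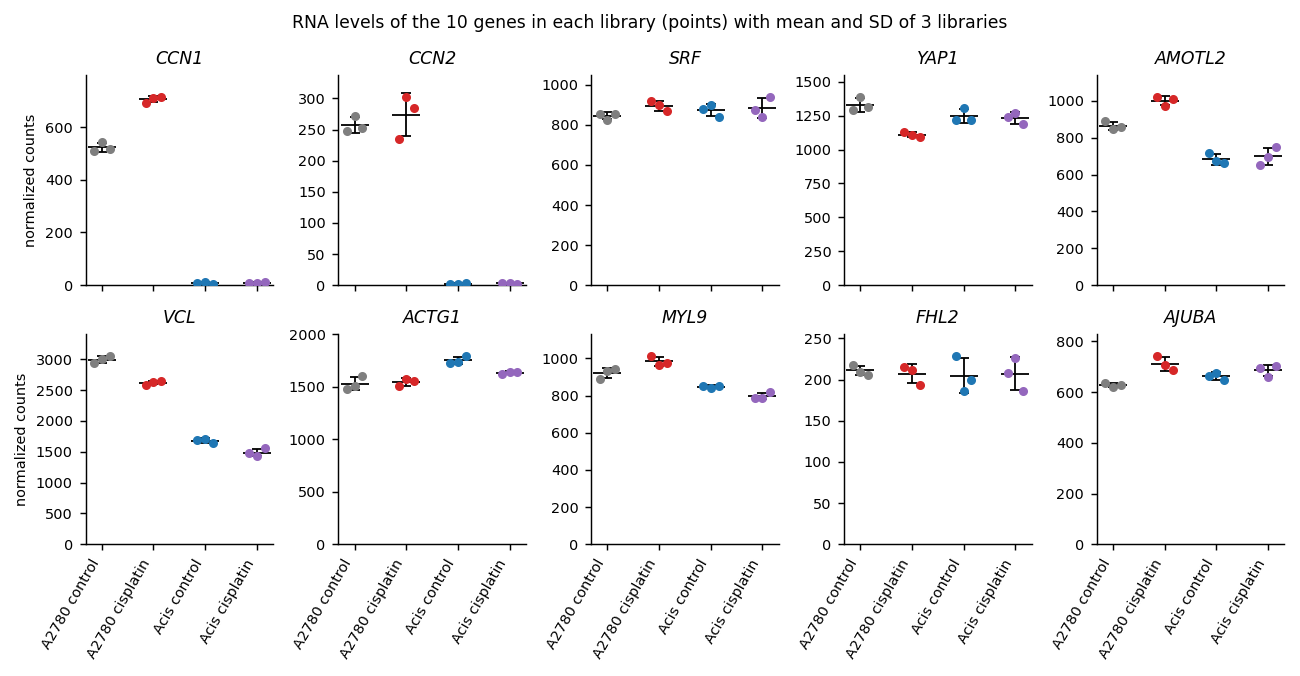
Normalized counts (vertical axes, from 0, a scale for each gene) of the 10 genes in the 12 libraries, as points by group, with the mean (long bar) and SD of 3 libraries. CCN1 and CCN2 lie near 0 in both Acis groups, VCL and AMOTL2 lie lower in Acis than in A2780, and SRF and FHL2 are level across the groups.

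Genes next to CCN1 were also lower in Acis. DDAH1, an enzyme that degrades methylated arginines and whose gene lies 2 kb from CCN1, had a mean of 325 normalized counts in A2780 control and 4.30 in Acis control (log2 difference -6.18, SE 0.17, adjusted p = 6.46e-22). The long noncoding RNA ENSG00000282057, which lies within the span of DDAH1, had 49.7 and 1.09 (log2 difference -5.37, SE 0.38, adjusted p = 4.23e-12). All 8 other tested genes within 500 kb of CCN1 were lower in Acis control than in A2780 control. Those other than DDAH1 and the noncoding RNA differed by -0.27 (SYDE2) to -1.88 (DNAI3) on the log2 scale, with -0.85 for ZNHIT6 at 68 kb. Near CCN2, 2 other genes were tested. MED23, a subunit of the Mediator complex 323 kb away, had 185 and 183 normalized counts (log2 difference -0.01, SE 0.09, adjusted p = 0.938), and STX7, 494 kb away, had 176 and 93.3 (log2 difference -0.92, SE 0.10, adjusted p = 4.53e-09).

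The peak lists also differed at CCN1. Within 100 kb on either side of its start there were 5 peaks in A2780 control, 5 in A2780 cisplatin and 0 in both Acis lists. In A2780 control the summits lay at -77800, -59485, -53423, -4097 and 26564 bases from the start, with 3.97- to 10.57-fold enrichment over the local background. In A2780 cisplatin a peak covered the start, with its summit 255 bases inside the gene and 4.08-fold enrichment. At CCN2, the A2780 control list held 1 peak, with its summit 763 bases inside the gene and 10.38-fold enrichment, and the other 3 lists held 0 within 100 kb. Each list is 1 set of peaks shared by the replicates of a condition, without values for each replicate or read counts, so these differences have no test, and a peak missing from a list is not shown to be closed DNA.

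**Figure D2:**
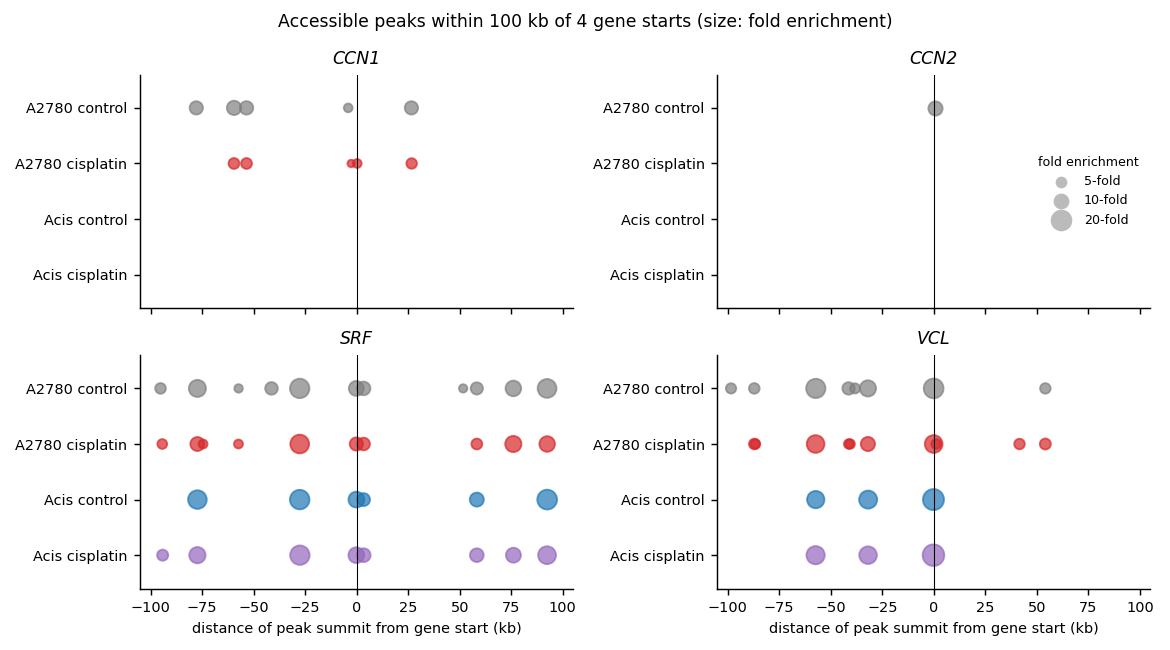
Peaks within 100 kb of the starts of CCN1, CCN2, SRF and VCL in the 4 lists (rows), placed by the distance of the summit from the gene start in kb along the gene's strand, with circle area in proportion to fold enrichment. CCN1 has 5 peaks in each A2780 list and none in the Acis lists, while the peaks at the starts of SRF and VCL are in all 4 lists.

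Over the 10 genes, a peak lay within 1 kb of the start of 9 in A2780 control (all but CCN1), 9 in A2780 cisplatin (all but CCN2), 6 in Acis control (not CCN1, CCN2, AMOTL2 or ACTG1) and 8 in Acis cisplatin (not CCN1 or CCN2). Of 15708 tested genes with a position, 72.9%, 74.4%, 66.4% and 70.7% had such a peak. SRF had a peak over its start in each list, with 11.47-, 8.94-, 12.93- and 12.77-fold enrichment in A2780 control, A2780 cisplatin, Acis control and Acis cisplatin. VCL had the highest values of the 10 genes, with 20.06, 16.26, 22.77 and 24.06 in the same order. YAP1, MYL9, FHL2 and AJUBA also had a peak within 1 kb in all 4 lists. At AMOTL2 the peak over the start had 10.84-fold enrichment in A2780 control and 11.76-fold in Acis cisplatin, the peak of A2780 cisplatin lay 666 bases inside the gene, and the Acis control list held none. Around VCL there were 8 and 10 peaks within 100 kb in the A2780 lists and 3 in each Acis list. The lists held 34979, 32159, 24485 and 27321 peaks in the order given above, so the Acis lists were shorter throughout.

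With cisplatin present in both lines, 2 of the 10 genes were higher in Acis (YAP1 and ACTG1) and 5 were lower (CCN1, CCN2, AMOTL2, VCL and MYL9), beside 31.8% and 31.2% of all genes. CCN1 and CCN2 were again those lower by at least 2-fold, beside 11.9% of all genes. The median log2 difference of the 10 genes was -0.18, and that of all genes 0.00 to 2 decimals.

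In A2780, cisplatin raised 4 of the 10 genes (CCN1, AMOTL2, AJUBA and MYL9) and lowered 2 (YAP1 and VCL), and none changed by 2-fold. Of all genes tested, 21.2% rose and 28.2% fell, and 5.62% changed by at least 2-fold. The median log2 change of the 10 genes was 0.09, beside -0.01 over all genes. The cisplatin and control libraries did not overlap for 7 of the 10, and for 57.3% of all genes. With total counts in place of TMM as library sizes, the median over all genes moved from -0.01 to 0.10. In that setting 7 of the 10 genes rose, with CCN2, SRF and ACTG1 added, and the same 2 fell. The share of all genes that rose in that setting is not given here, so the added genes are not set apart from this shift.

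In Acis, cisplatin raised 0 of the 10 genes and lowered 2 (VCL and ACTG1) in edgeR, beside 9.35% and 12.4% of all genes, and none changed by 2-fold, beside 2.01%. DESeq2 called the same 2 genes. At an unadjusted p under 0.05 the lower genes were 3, with MYL9 added, and the higher genes 0. The shares of all genes under that looser rule are not given here, so these counts have no background. The median log2 change of the 10 genes was 0.02, beside 0.01 over all genes. The libraries of the 2 Acis groups did not overlap for 3 of the 10 genes, and for 34.2% of all genes.

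The change with cisplatin differed between the lines in edgeR for 3 of the 10 genes: YAP1, whose change was more positive in Acis, and AMOTL2 and MYL9, whose change was more negative. DESeq2 called YAP1 (adjusted p = 0.0188) but not AMOTL2 (0.125) or MYL9 (0.0851). Of all genes, 13.4% had a more positive and 5.48% a more negative change in Acis. For CCN1, cisplatin raised the level 1.35-fold in A2780 (log2 change 0.43, SE 0.05, adjusted p = 1.15e-08), and the log2 change in Acis was 0.06, with a 95% interval of -0.67 to 0.78 at 5 to 13 counts in each library. The difference of the changes was -0.37 (-1.12 to 0.37, adjusted p = 0.578), so a smaller, an equal or a larger response in Acis could not be told apart at this depth. For CCN2, the log2 change was 0.09 (-0.07 to 0.24, adjusted p = 0.353) in A2780 and 0.20 (-1.26 to 1.65, adjusted p = 0.901) in Acis.

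**Figure D3:**
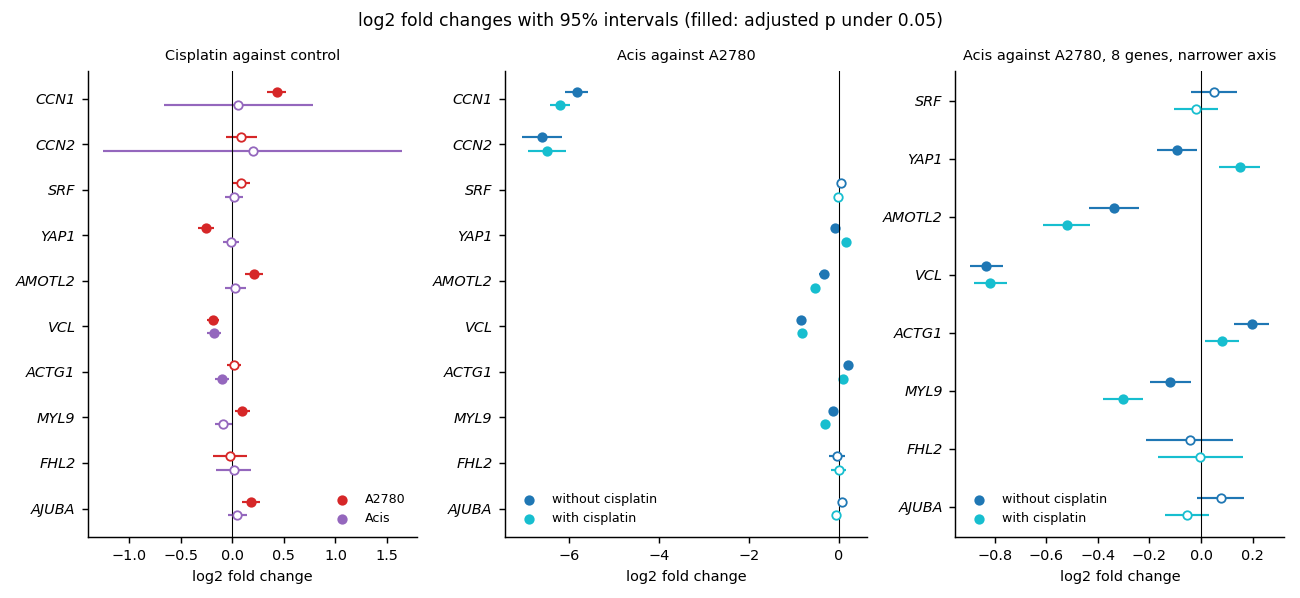
log2 fold changes (horizontal axes) of the 10 genes with 95% intervals, for cisplatin against control in each line (left), for Acis against A2780 (middle), and again without CCN1 and CCN2 on a narrower axis (right). Filled points have an adjusted p under 0.05. The intervals were derived from the F statistic of the test and are too narrow for CCN1 and CCN2 between the lines. CCN1 and CCN2 lie between -5.83 and -6.60 on the log2 scale in both comparisons of the lines, and VCL at about -0.8.

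Of the regulators, SRF was called in no comparison and YAP1 fell with cisplatin in A2780. SRF, with 7 exons at chr6:43171269-43181506, had 856, 825 and 854 normalized counts in A2780 control, 919, 900 and 869 in A2780 cisplatin, 880, 901 and 840 in Acis control and 875, 840 and 939 in Acis cisplatin libraries. The libraries of all groups overlapped except those of the 2 A2780 groups. Its log2 change with cisplatin was 0.09 in A2780 (95% interval -0.0019 to 0.17, adjusted p = 0.0986) and 0.02 in Acis (-0.07 to 0.11, adjusted p = 0.846). The difference of Acis control from A2780 control was 0.05 (-0.04 to 0.14, adjusted p = 0.355). The change in A2780 passed the threshold when only the libraries of the 2 A2780 groups were fitted (0.11, adjusted p = 0.0174) and with total counts as library sizes (0.20, adjusted p = 0.000199). The latter setting moved the median over all genes to 0.10.

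YAP1, with 9 exons over 122978 bases at chr11:102110447-102233424, had 1289, 1387 and 1316 normalized counts in A2780 control and 1127, 1110 and 1094 in A2780 cisplatin libraries. It had 1216, 1306 and 1216 in Acis control and 1240, 1271 and 1187 in Acis cisplatin libraries. Cisplatin lowered it in A2780, where the groups did not overlap, by 0.26 on the log2 scale (SE 0.04, adjusted p = 2.13e-06). In Acis the groups overlapped, and the log2 change was -0.02 with a 95% interval of -0.10 to 0.06 (adjusted p = 0.835). The changes differed between the lines by 0.24 (SE 0.05, adjusted p = 0.00196). Between the controls the log2 difference of Acis from A2780 was -0.09 (adjusted p = 0.0346), in libraries that overlapped, and DESeq2 gave an adjusted p of 0.153. With cisplatin YAP1 was higher in Acis by 0.15 (SE 0.04, adjusted p = 0.00127).

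AMOTL2 and AJUBA act on the Hippo pathway. AMOTL2, a YAP target whose protein binds YAP1 and keeps it at cell junctions, has 10 exons and lies at chr3:134355347-134375479. It had 888, 847 and 858 normalized counts in A2780 control, 1020, 973 and 1012 in A2780 cisplatin, 718, 672 and 661 in Acis control and 654, 693 and 748 in Acis cisplatin libraries. Every A2780 library was above every Acis library, and the A2780 cisplatin libraries were above the A2780 controls. The log2 change with cisplatin in A2780 was 0.21 (SE 0.04, adjusted p = 0.000167), and in Acis it was 0.03 (95% interval -0.07 to 0.13, adjusted p = 0.76). The test of the difference between the lines gave -0.18 (SE 0.07, adjusted p = 0.0488), a call that was lost in 12 of 18 alternatives, with DESeq2 at an adjusted p of 0.125. The difference of Acis from A2780 was -0.34 (SE 0.05, adjusted p = 5.43e-07) without and -0.52 (SE 0.04, adjusted p = 5.65e-11) with cisplatin.

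AJUBA, a LIM-domain protein that restrains the LATS kinases, has 8 exons and lies at chr14:22971177-22982551. It had 637, 620 and 629 normalized counts in A2780 control, 741, 705 and 689 in A2780 cisplatin, 665, 676 and 646 in Acis control and 693, 660 and 703 in Acis cisplatin libraries. The A2780 cisplatin libraries were all above the A2780 controls, with a log2 change of 0.18 (SE 0.04, adjusted p = 0.00107). The log2 change in Acis was 0.05 (95% interval -0.04 to 0.14, adjusted p = 0.517), and the difference between the lines was -0.13 (adjusted p = 0.149).

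VCL encodes vinculin, which links integrins and cadherins to actin, and has 22 exons over 126171 bases at chr10:73995193-74121363. It had 2935, 2996 and 3047 normalized counts in A2780 control, 2588, 2635 and 2638 in A2780 cisplatin, 1684, 1712 and 1641 in Acis control and 1475, 1433 and 1553 in Acis cisplatin libraries. No pair of groups overlapped. VCL was lower in Acis control than in A2780 control by 0.83 on the log2 scale (0.561 of its level, SE 0.03, adjusted p = 4.15e-19), and cisplatin lowered it in both lines, with log2 changes of -0.19 in A2780 (SE 0.03, adjusted p = 2.48e-06) and -0.18 in Acis (SE 0.03, adjusted p = 0.000265). The difference of these changes was 0.02, with a 95% interval of -0.07 to 0.10 (adjusted p = 0.867).

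ACTG1 encodes gamma-actin of the cytoplasm and has 6 exons at chr17:81509413-81523847. It had 1482, 1507 and 1601 normalized counts in A2780 control, 1504, 1577 and 1556 in A2780 cisplatin, 1730, 1738 and 1792 in Acis control and 1619, 1643 and 1644 in Acis cisplatin libraries. All Acis libraries were above all A2780 libraries. The log2 difference between the controls was 0.20 (SE 0.03, adjusted p = 8.87e-06). In Acis the cisplatin libraries were below the controls, with a log2 change of -0.10 (SE 0.03, adjusted p = 0.0273), which was lost without Acis control replicate 3 or Acis cisplatin replicate 1 or 2 (adjusted p = 0.0577 to 0.0984). With cisplatin the lines differed by 0.08 (adjusted p = 0.0315), which was lost in 12 of 19 alternatives. ACTG1 shares sequence with ACTB and with processed pseudogenes, so its count depends on how reads that fit several places were assigned.

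MYL9 encodes a regulatory light chain of myosin II and has 4 exons at chr20:36541497-36551447. It had 892, 932 and 942 normalized counts in A2780 control, 1012, 964 and 976 in A2780 cisplatin, 853, 839 and 851 in Acis control and 788, 789 and 818 in Acis cisplatin libraries. No pair of groups within a line or treatment overlapped. The log2 change with cisplatin in A2780 was 0.10 (SE 0.04, adjusted p = 0.0317), which was lost in 7 of 19 alternatives, DESeq2 among them (adjusted p = 0.259). In Acis it was -0.09 (adjusted p = 0.124). The difference between the lines was -0.18 (SE 0.05, adjusted p = 0.0174, with 0.0851 in DESeq2). MYL9 was lower in Acis by 0.12 without (adjusted p = 0.00918, with 0.0899 in DESeq2) and by 0.30 with cisplatin (SE 0.04, adjusted p = 7.47e-08).

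FHL2, a LIM protein that binds SRF and is also its target, has 7 exons at chr2:105357712-105438513. Its normalized counts were 206 to 217 in A2780 control, 194 to 216 in A2780 cisplatin, 186 to 228 in Acis control and 187 to 226 in Acis cisplatin libraries. All groups overlapped, and it was called in none of the 5 comparisons. Its log2 changes with cisplatin were -0.03 in A2780 (95% interval -0.19 to 0.14) and 0.01 in Acis (-0.16 to 0.18), and the difference of the controls was -0.04 (-0.21 to 0.13), so changes of these sizes were not detectable at this depth.

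Per kb of the annotated transcript, the order of the levels in A2780 control was ACTG1 (797 ± 32.6 normalized counts per kb, SD, n = 3), VCL (544 ± 10.2), MYL9 (331 ± 9.58), YAP1 (246 ± 9.32), CCN1 (230 ± 7.70), SRF (200 ± 4.11), AMOTL2 (178 ± 4.35), AJUBA (151 ± 2.03), FHL2 (133 ± 3.67) and CCN2 (110 ± 5.43). YAP1 and CCN1 lay within the sum of their SDs of each other, and other neighbors lay further apart. In A2780 cisplatin, CCN1 (310 ± 5.11) stood above SRF (212 ± 5.93), AMOTL2 (206 ± 5.18) and YAP1 (206 ± 3.05), and these 3 did not differ beyond their spread. In Acis control the order was ACTG1 (914 ± 17.4), VCL (305 ± 6.52), MYL9 (304 ± 2.77), YAP1 (231 ± 9.55), SRF (206 ± 7.32), AJUBA (159 ± 3.63), AMOTL2 (140 ± 6.16), FHL2 (129 ± 13.5), CCN1 (3.95 ± 1.88) and CCN2 (1.09 ± 0.319). VCL and MYL9 did not differ beyond their spread there, nor did AMOTL2 and FHL2. Since duplicates were removed from single-end reads, a position and strand gives at most 1 count, and a level near that ceiling is compressed. The highest library reached 87.9 counts per 100 transcript bases for ACTG1, 57.2 for VCL and 38.7 for MYL9, and 13.3 to 32.4 for the other 7 genes. The part of this limit in the small changes of ACTG1, or in the size of the difference of VCL between the lines, was not tested.

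Gene length moved with the change after cisplatin across all genes, and the 10 genes are spread over the classes of length. The median log2 change in A2780 was 0.21 for genes under 10 kb, the class of CCN1, CCN2 and MYL9, 0.09 from 10 to 30 kb, the class of SRF, AMOTL2, ACTG1 and AJUBA, -0.15 from 30 to 100 kb, the class of FHL2, and -0.39 from 100 to 300 kb, the class of YAP1 and VCL. Against the median of its class, CCN1 was above (0.43 beside 0.21), AMOTL2 and AJUBA were above (0.21 and 0.18 beside 0.09), MYL9 was below (0.10 beside 0.21), and the falls of YAP1 (-0.26) and VCL (-0.19) were smaller than the class median. Among genes not called, CCN2 was below (0.09 beside 0.21), and so was ACTG1 (0.02 beside 0.09). SRF was at the median of its class (0.09 beside 0.09), and FHL2 was above (-0.03 beside -0.15). In Acis the medians of these classes were 0.09, 0.07, -0.02 and -0.17. VCL changed there by -0.18 and YAP1 by -0.02, both in the class from 100 to 300 kb. Genes over 300 kb had medians of -0.47 in A2780 and -0.24 in Acis. The pathway lists below are not split by length. The part of gene length in the changes of their genes, or of the 10 genes, was not tested.

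Among 22 listed YAP and TEAD targets, CCN1, CCN2 and AMOTL2 included, 20 could be tested. In Acis control 13 were lower and 4 higher (DOCK5, RBMS3, ASAP1 and FOXF2) than in A2780 control, against 30.6% and 28.2% of all genes. By at least 2-fold, 10 were lower, against 12.2% of all genes, and 2 were higher. The share of all genes higher by 2-fold is not given here. The median of the 20 was -1.10 on the log2 scale. Of the 17 other than the 3 genes above, 10 were lower and 4 higher. MYOF, a membrane repair protein, had 182 ± 2.93 (SD, n = 3) normalized counts in A2780 control and 5.09 ± 0.754 in Acis control (log2 difference -5.13, SE 0.18, adjusted p = 9.26e-20). GADD45A, a gene also induced by p53, was lower by 1.53 (SE 0.11, adjusted p = 1.64e-12), and DOCK5, an exchange factor for Rac, was higher (102 ± 9.30 and 742 ± 19.7 normalized counts, log2 difference 2.86, SE 0.07, adjusted p = 1.04e-23). ANKRD1, a nuclear ankyrin-repeat protein, had 80 counts over the A2780 controls and 0 over the Acis controls. With cisplatin in A2780, 5 of the 20 listed targets rose (CCN1, AMOTL2, GADD45A, F3 and FJX1) and 9 fell, against 21.2% and 28.2% of all genes, with a median of -0.18. In DESeq2, 5 rose and 7 fell. GADD45A rose by 0.85 (SE 0.07, adjusted p = 1.53e-10), and RBMS3 (-0.62), PTPN14 (-0.58) and ASAP1 (-0.50) fell (adjusted p of 6.24e-09, 8.98e-15 and 8.83e-12). FOXF2, ANKRD1, F3, FJX1 and, in the lists that follow, TEAD2, WTIP, LATS1, LATS2, ELK1, FHL1, ACTB and TAGLN2 were named after their values were seen.

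The coactivators and TEAD factors form a list of 7 genes with YAP1. In Acis control 5 of them were lower and 0 higher in edgeR (YAP1, WWTR1, VGLL4, TEAD3 and TEAD2), against 30.6% and 28.2% of all genes. In A2780, cisplatin lowered 5 (YAP1, WWTR1, VGLL4, TEAD3 and TEAD1) and raised 0, against 28.2% and 21.2% of all genes. No gene was higher at an unadjusted p under 0.05 or in DESeq2, which called 4 lower in each comparison. The shares of all genes under these other rules are not given here. WWTR1, which encodes TAZ, the paralog of YAP1, had 665 ± 2.88 (SD, n = 3) normalized counts in A2780 control and 486 ± 26.3 in Acis control (log2 difference -0.45, SE 0.05, adjusted p = 1.85e-09). TEAD3 was lower by 1.24 (SE 0.09, adjusted p = 8.23e-13). Cisplatin lowered TEAD1 in A2780 by 0.50 (SE 0.03, adjusted p = 8.37e-13), WWTR1 by 0.28, VGLL4, a repressor that competes with YAP1 for TEAD factors, by 0.34 and TEAD3 by 0.25 (adjusted p = 0.00662 in edgeR and 0.0861 in DESeq2). Of the 19 Hippo kinases, scaffolds and inhibitors, AMOTL2 and AJUBA included, cisplatin lowered 12 and raised 3 in A2780 (AMOTL2, AJUBA and WTIP), against 28.2% and 21.2% of all genes. In Acis control 9 were higher and 5 lower (AMOTL1, AMOT, AMOTL2, LATS1 and LATS2), against 28.2% and 30.6%. The upstream kinase gene TAOK1 fell with cisplatin in A2780 by 0.69 (SE 0.03, adjusted p = 6.67e-15), the LATS cofactor MOB1B by 0.69 and the LIM protein gene LIMD1 by 0.54. AMOTL1 and AMOT, the paralogs of AMOTL2, were lower in Acis control by 3.95 (SE 0.25, adjusted p = 1.15e-13) and 2.39 (SE 0.16, adjusted p = 4.61e-13) on the log2 scale.

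Among 23 listed SRF targets of the actin cytoskeleton, 9 were lower and 5 higher in Acis control (ACTG1, ACTB, MYH9, FHL1 and TAGLN2). Of all genes, 30.6% were lower and 28.2% higher. By at least 2-fold, 4 of the 23 were lower, against 12.2% of all genes, and 1 was higher (share of all genes not given). DESeq2 called 8 lower and 4 higher, without MYL9 and FHL1. In A2780, cisplatin raised 6 and lowered 6 in edgeR, against 21.2% and 28.2% of all genes, and DESeq2 called 2 higher (MYL6 and TAGLN2) and 6 lower. ACTA2, smooth muscle actin, had 543 ± 6.28 (SD, n = 3) normalized counts in A2780 control and 19.1, 19.2 and 21.7 in the Acis control libraries (log2 difference -4.76, SE 0.11, adjusted p = 4.65e-24), and TAGLN, transgelin, had 653 ± 4.17 in A2780 control and 99.8, 88.4 and 96.9 in the Acis control libraries (-2.78, SE 0.07, adjusted p = 7.73e-23). The integrin gene ITGA5 was lower in Acis control by 1.42 (SE 0.05, adjusted p = 2.8e-19), and in A2780 cisplatin lowered it by 0.23 (adjusted p = 4.33e-05). In A2780, cisplatin lowered TLN1, whose protein talin binds vinculin, by 0.33 (SE 0.04, adjusted p = 8.59e-08) and MYH9, a heavy chain of the myosin of MYL9, by 0.30, and raised MYL6 by 0.38 (SE 0.05, adjusted p = 4.01e-07). In Acis, cisplatin lowered 8 of the 23 and raised 0 in edgeR, and of all genes 12.4% fell and 9.35% rose. At an unadjusted p under 0.05, 1 was higher, and in DESeq2 0, with the shares of all genes under these rules not given.

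Of SRF and its cofactors, 6 could be tested. Cisplatin lowered 4 of them in A2780, MRTFB by 0.77 (SE 0.05, adjusted p = 3.97e-12), MRTFA by 0.70 (SE 0.06, adjusted p = 1.05e-09), ELK4 by 0.33 and ELK3 by 0.25, and raised 1 in edgeR (ELK1, adjusted p = 0.0146, and 0.156 in DESeq2), against 28.2% and 21.2% of all genes. In Acis it lowered 2, MRTFA by 0.75 (SE 0.07, adjusted p = 2.23e-08) and MRTFB by 0.35 (SE 0.06, adjusted p = 6.71e-05), against 12.4% of all genes. The 10 listed SRF targets of the immediate-early response, with SRF among them, had the largest share rising with cisplatin among the lists. In A2780 9 rose, against 21.2% of all genes, and in Acis 8 rose (6 in DESeq2), against 9.35%. By at least 2-fold, 5 rose in A2780, beside 5.62% of all genes that changed so in either direction. FOS, a subunit of the AP-1 factor, had 73.7 ± 1.92 (SD, n = 3) normalized counts in A2780 control and 828 ± 6.01 in A2780 cisplatin, and 74.1 ± 6.43 and 270 ± 7.52 in Acis. EGR1, a zinc-finger factor, had 349 ± 11.8 and 1253 ± 12.5 without and with cisplatin in A2780, and it rose in Acis too (1154 ± 37.9 and 1392 ± 10.3). EGR2 had 15.5 ± 3.79 in A2780 control and 396 ± 11.3 in Acis control (log2 difference 4.67, SE 0.12, adjusted p = 8.61e-23). In A2780, FOSB rose by 2.14 and JUNB by 0.96 on the log2 scale (SE 0.10 and 0.05, adjusted p of 1.84e-15 and 1.47e-14). The change of 8 of the 10 was more negative in Acis (7 in DESeq2), against 5.48% of all genes, and SRF, at -0.07 (adjusted p = 0.493), was not among them.

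**Figure D4:**
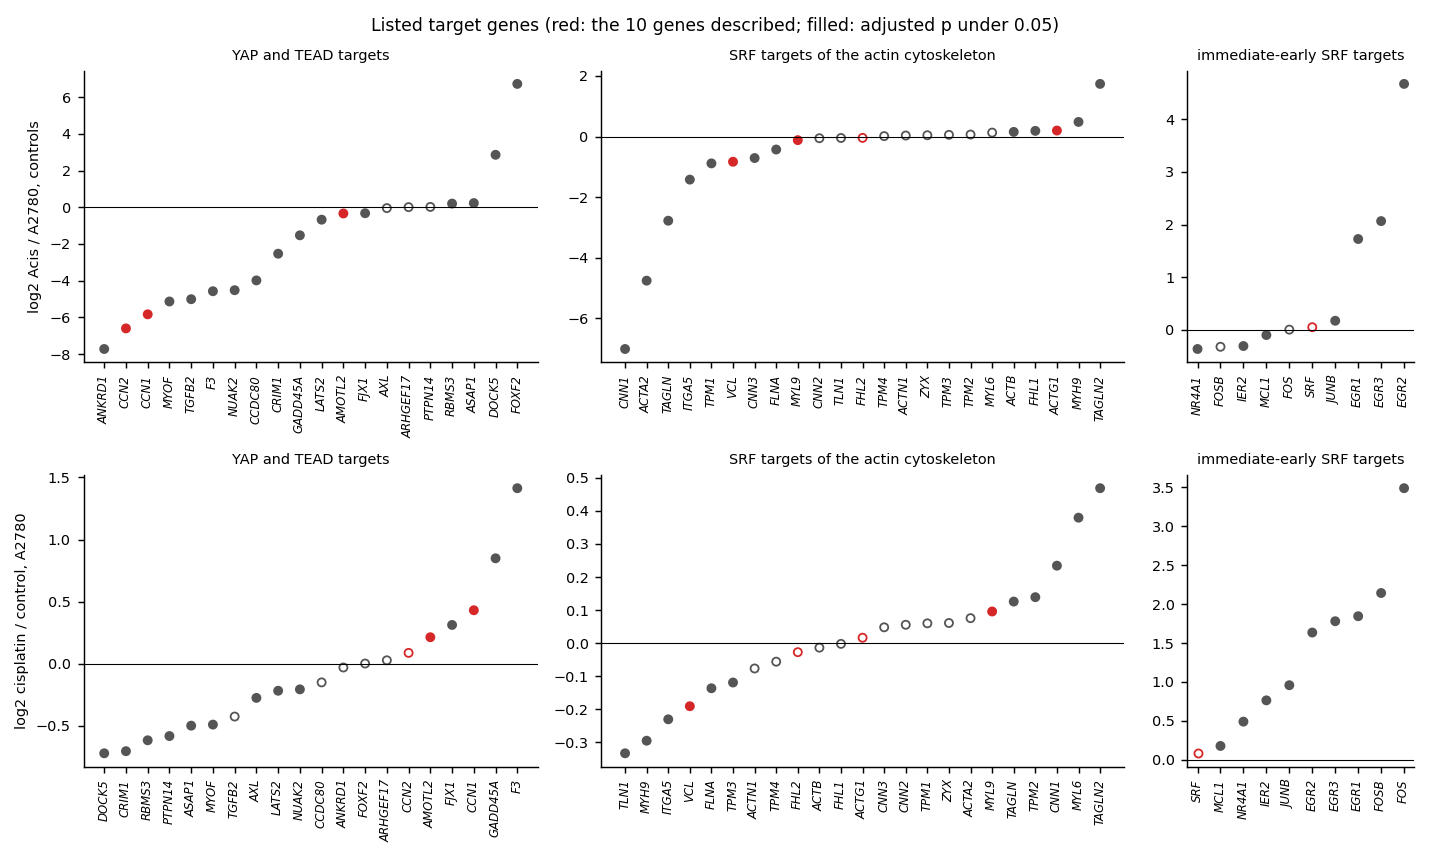
log2 differences between the controls of the lines (upper row) and log2 changes with cisplatin in A2780 (lower row) for tested genes of 3 lists of targets, ordered by value, with a vertical scale for each panel. Red points are genes among the 10, filled points have an adjusted p under 0.05, and values of genes with a group at 0 counts, such as ANKRD1, depend on the fit. CCN1 and CCN2 lie with other YAP and TEAD targets at the low end of the difference between lines, and FOS, FOSB and EGR1 lie at the high end of the immediate-early list in A2780.

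The genes with a pattern most like that of CCN1 over the 12 libraries, by Pearson correlation of log2 values among 10898 genes with at least 50 counts per library on average, were UCHL1 (r = 0.999), MAGED2 (0.999), APOL1 (0.998) and TAP1 (0.998). UCHL1, a deubiquitinating enzyme of neurons, had means of 372, 461, 30.0 and 32.2 normalized counts in A2780 control, A2780 cisplatin, Acis control and Acis cisplatin. Among the 10 genes, the correlation of CCN1 was 0.992 with CCN2, 0.962 with VCL, 0.934 with AMOTL2 and 0.901 with MYL9, near 0 with AJUBA (-0.01) and FHL2 (0.09), -0.17 with YAP1 and -0.83 with ACTG1. For SRF the closest were GTPBP1 (0.852), B4GALT3 (0.839), ENSG00000230626 (0.835) and ARFRP1 (0.828), and its correlation with CCN1 was -0.06. These values describe 12 libraries that fall into 2 lines and 4 groups, and they carry no test.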

How the data were processed

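RNA counts and ATAC-seq peaks of the A2780 and Acis lines were analyzed. The XR-seq samples, which map excision repair, were not analyzed here. Per the methods of the authors, RNA was depleted of ribosomal RNA and made into stranded libraries, single-end reads were aligned to hg38 with STAR (2.7.3 in the processing notes of the submitters), PCR duplicates were removed with Picard, and reads were counted on genes with htseq-count (HTSeq 0.11.1) set to the reverse strand. The deposited values are raw counts. ATAC-seq reads were aligned with Bowtie2 (2.4.1), duplicates and reads on chrY and chrM were removed, and peaks were called with MACS2. The authors kept peaks that overlapped between the replicates of a condition, and the deposited lists give, for each peak, its fold enrichment above local signal and its -log10 p and q values. The lists hold no read counts, and the methods give only a minimum number of aligned reads per ATAC-seq sample, so the depth behind single peaks is not known here.

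Counts were analyzed with edgeR 4.0.16 in R 4.3.3: TMM factors, its default filter on low counts (15760 of 23622 genes kept), 1 model with a mean for each of 4 groups (12 libraries, 8 residual degrees of freedom), and the quasi-likelihood test, with p-values adjusted by Benjamini-Hochberg over all genes tested. The script was tested on simulated data with known changes. DESeq2 1.42.0, the tool of the authors, other library sizes, no filter, fits to 2 groups, the replicate block, libraries left out in turn, and the closest pair of libraries of each group merged were alternatives. Without duplicates, counts can vary less than Poisson draws, so libraries closer than the counting noise were kept as replicates in the main comparison. Counting intervals are exact, at 95%, and cover counting error only. Each SE is the absolute log2 change divided by the square root of the F statistic. The 95% intervals of log2 values use this SE and the t distribution, so they need not match the p-values. Gene positions came from GENCODE on GRCh38 and promoters from RefSeq. Python 3.11.15 and matplotlib 3.10.9 were used for summaries and plots.

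The 10 genes, the lists of pathway genes and the marker lists were chosen with earlier results of these data known. Beside the 10 genes, the genes named are, for each pathway list, at most 4 with the smallest adjusted p-values in A2780 cisplatin against control and at most 2 in Acis control against A2780 control, the 4 genes most correlated with CCN1 and with SRF, and the genes next to CCN1 and CCN2. Exceptions are stated.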

Additional observations from a re-analysis of the deposited data

Results flagged for a closer look

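The results listed here had a change with cisplatin that differed between the lines in edgeR's quasi-likelihood test of the difference (adjusted p under 0.05), and each value is the log2 change in Acis minus that in A2780. Of the 10 genes, YAP1 had 0.24 (change of -0.02 in Acis and -0.26 in A2780), AMOTL2 had -0.18 (0.03 and 0.21) and MYL9 had -0.18 (-0.09 and 0.10). AMOTL2 and MYL9 did not pass in DESeq2 (adjusted p of 0.125 and 0.0851). Genes of 100 to 300 kb, the class of YAP1, had a median log2 change of -0.17 in Acis and -0.39 in A2780. The part of gene length in these differences, and in those below, was not tested.

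Among Hippo pathway genes, TAOK1 had 0.48, PTPN14 0.28, LIMD1 0.28 and MOB1B 0.58, and each of the 4 fell in A2780. The TEAD factor gene TEAD1 had 0.30. The YAP and TEAD targets ASAP1 and RBMS3 had 0.15 and 0.42, and the difference for ASAP1 (adjusted p = 0.0368 in edgeR) did not pass in DESeq2 (adjusted p = 0.241). The SRF cofactor genes MRTFB and ELK4 had 0.41 and 0.38, and the myosin light chain gene MYL6 had -0.31.

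The values farthest below 0 among these 18 genes were those of immediate-early genes: FOS -1.62, EGR1 -1.57, FOSB -0.88, JUNB -0.55 and EGR2 -1.78. EGR1 and EGR2 began from higher levels in Acis control than in A2780 control, and FOS had 74.1 and 73.7 normalized counts there.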

How the results depend on the processing

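The calls for CCN1, CCN2, VCL and AMOTL2 between the lines, and for CCN1, YAP1, AMOTL2, VCL and AJUBA with cisplatin in A2780, kept their direction and stayed past the threshold in all alternatives run. The replicate numbers did not pair the libraries (correlations of -0.21 to 0.10 between libraries of the same number), and the fit with the replicate block gave 4 genes higher and 2 lower in A2780 and 1 higher and 6 lower in Acis control, the counts without the block.

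Counts of the 10 genes moved as follows. In A2780 with cisplatin, 7 rose with total counts as library sizes, a setting that moved the median over all genes to 0.10. In Acis, 1 fell with total counts and with merged libraries, and 1 to 2 with a library left out. With cisplatin in both lines, 1 was higher in Acis with DESeq2, DESeq2 size factors, total counts, merged libraries and the 2 groups alone, and 1 to 2 with a library left out. For the difference between lines, 0 were more negative in Acis with DESeq2, without the filter and with merged libraries, 4 with total counts, and 0 to 2 with a library left out.

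Calls were lost without single libraries, with the adjusted p in edgeR beside each. For MYL9 in A2780 these were A2780 control 1 (0.205) and 2 (0.0693) and A2780 cisplatin 1 (0.151) and 3 (0.0592). For YAP1 between controls they were A2780 control 2 (0.123) and Acis control 1 (0.0609) and 3 (0.0647). For the difference between lines of MYL9 they were A2780 control 1 (0.0632) and Acis cisplatin 1 (0.0545) and 2 (0.0535), and of AMOTL2 each library (0.0515 to 0.188) other than A2780 cisplatin 2, Acis control 3 and Acis cisplatin 3. For ACTG1 with cisplatin in both lines they were A2780 control 1 (0.0592) and 2 (0.0697), A2780 cisplatin 1 (0.115), each Acis control (0.0526 to 0.0603) and Acis cisplatin 2 (0.0555). CCN2 in A2780 passed without A2780 cisplatin 1 (0.0422), and the difference between lines of ACTG1 without A2780 control 3 (0.0315).

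Signs turned only for values not called, and the cause was not tested. For cisplatin in Acis, SRF had -0.0088 with DESeq2 and -0.00014 with its size factors, YAP1 0.038 with total counts, and FHL2 -0.012, -0.0035 and -0.0075 with DESeq2, its size factors and merged libraries. In A2780, ACTG1 had -0.012 without the filter and -0.010 with merged libraries, and FHL2 0.089 with total counts. FHL2 had 0.0051 between lines with cisplatin without the filter. The difference between lines was -0.0028 and -0.048 for VCL with DESeq2 size factors and total counts, and -0.021 for FHL2 with total counts. With a library left out, log2 values for cisplatin in Acis ranged from -0.17 to 0.50 (CCN1), -0.044 to 0.44 (CCN2), -0.028 to 0.052 (SRF), -0.039 to 0.012 (YAP1), -0.024 to 0.074 (AMOTL2) and -0.059 to 0.10 (FHL2). Those in A2780 ranged from -0.012 to 0.041 (ACTG1) and -0.060 to 0.016 (FHL2), and those between lines from -0.059 to 0.023 (SRF with cisplatin), -0.15 to 0.011 (FHL2, controls) and -0.066 to 0.070 (FHL2 with cisplatin). The differences between lines ranged from -0.60 to 0.078 (CCN1), -0.13 to 0.36 (CCN2), -0.014 to 0.045 (VCL) and -0.025 to 0.13 (FHL2). At 2 to 4 counts in each Acis library, a response of CCN2 to cisplatin was not detectable there.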
